A study of Mus musculus with 10 samples.

Results

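The 10 genes described here encode neurofilament proteins and other proteins of the axonal cytoskeleton. They were picked by gene symbol, with earlier results of these data known, from the 24302 genes of the expression tables, and all 10 were found and tested. They were taken in 3 groups by role. The intermediate filament genes are *Nefl*, *Nefm*, *Nefh*, *Ina* and *Prph*. The microtubule-associated genes are *Dcx*, *Stmn2*, *Map2* and *Mapt*, and the growth cone gene is *Gap43*.

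RNA was sequenced from whole C57BL/6 mouse embryos at embryonic day 11.5 (E11.5), with 3 wildtype (*Wwc2*+/+), 3 heterozygous (*Zp3-Cre-Wwc2* KO/+) and 4 homozygous (*Zp3-Cre-Wwc2* KO/KO, here called KO) embryos. *Wwc2* encodes a cytoplasmic scaffold protein of the Hippo pathway. The *Zp3* promoter drives Cre recombinase in the growing oocyte, so that a floxed *Wwc2* allele from the mother is deleted before fertilization and the deletion is present in all tissues of the embryo. The comparisons ask how the loss of 1 or both copies of *Wwc2* changes the transcriptome of the embryo. Nothing in the sources used here says whether the embryos came from separate litters, so the p-values measure the spread between these embryos.

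Neurofilaments are the intermediate filaments of neurons and fill the axon as it gains calibre. They are built from a light, a medium and a heavy chain, with alpha-internexin and peripherin as further partners, the former mainly in central and early neurons and the latter mainly in neurons with peripheral axons. Microtubules run along the same axons and dendrites and are bundled, stabilized or taken apart by the proteins that bind them, and at mid-gestation most neurons that make these proteins have only recently left the cell cycle.

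The data are the authors' deposited tables of KO versus wildtype and heterozygous versus wildtype embryos, which hold for each gene a mean normalized count over the 10 embryos, a log2 fold change, its standard error (SE) and a p-value from DESeq2. Values per embryo were not used here, so levels are given for each genotype as a whole, derived from the overall mean and both fold changes, and no single embryo can be described. Over all genes the mean normalized counts summed to 2.56e+07, and the derived sums were 2.38e+07 for wildtype, 2.37e+07 for heterozygous and 2.83e+07 for KO embryos. For the targeted gene, *Wwc2*, the log2 fold change was 0.30 between KO and wildtype embryos (SE 0.17, adjusted p = 0.176 from DESeq2). Its count can take in reads from exons outside the deletion, and therefore does not check the genotypes.

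Each of the 10 genes was lower in KO embryos than in wildtype ones with an adjusted p below 0.05 in the DESeq2 test of the authors, and none was higher. Over all 17477 genes with an adjusted p, 10.2% were lower and 15.6% were higher. Scaling by the summed counts would shift every log2 fold change of this comparison down by 0.25 and turn the split of 1787 lower and 2721 higher genes into 5409 and 1437, with all 10 genes still lower. The 10 genes had a median log2 fold change of -1.11, against 0.02 over all genes tested. In 6 of the 10 the fall exceeded 1 log2 unit, which 3.56% of all genes tested passed. Summed over the 10 genes, the normalized counts came to 40672 in wildtype embryos, 44027 in heterozygotes and 20015 in KO embryos, so that 49.2% of the wildtype sum was left in KO embryos. The RNA came from whole embryos, where fewer neurons and less RNA per neuron cannot be told apart. The paper describes KO embryos at E11.5 as growth retarded and less developed than controls. A difference in developmental stage cannot be told apart from either and was not tested. When a t distribution (7 degrees of freedom) replaced the normal one, no gene of the 10 was called, and none of all genes was.

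**Figure D1:**
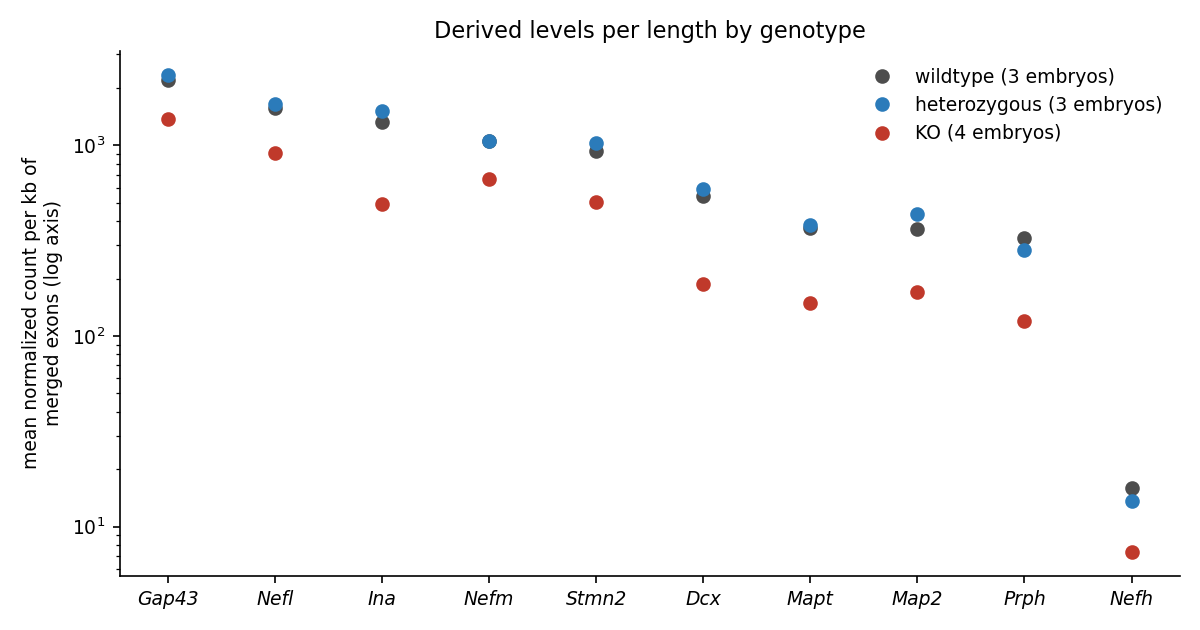
Derived mean normalized count per kb of merged exons (log10 axis) of the 10 genes in wildtype, heterozygous and KO embryos, 1 point per genotype. For each gene the KO point is the lowest, and the wildtype and heterozygous points lie close together. Per kb, wildtype and heterozygous levels run from 15.9 and 13.7 for Nefh to 2213 and 2349 for Gap43.

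The neurofilament triplet was lower in KO embryos in all of its chains. *Nefl*, the light chain on which the filament core is assembled, lies on the forward strand of chromosome 14 (chr14:68083863-68089095, GRCm38, GENCODE M21). Its mean normalized count was 5312 in wildtype embryos, 5556 in heterozygotes and 3097 in KO embryos. The log2 fold change in KO versus wildtype embryos was -0.78 (SE 0.31, 95% interval -1.38 to -0.18, adjusted p = 0.0455 from DESeq2). *Nefl* had the largest adjusted p of the 10 genes, and with the adjustment made over every gene with a p-value it was 0.0537 and past the threshold no longer.

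*Nefm*, the medium chain, whose long tail is phosphorylated in the mature axon, lies next to *Nefl* on the opposite strand (chr14:68082590-68124846 in GENCODE M21). In the RefSeq annotation the neighbours are separated by 30.4 kb. The longer of both *Nefm* transcripts in GENCODE M21, with 4 exons and 3680 bases, extends across *Nefl*, and 1108 of its exon bases lie within exons of *Nefl*. The paper names a directional library kit, but whether the reads were counted with strand is not given in the sources used here. Without strand the reads of that stretch cannot be assigned to either gene. *Nefm* stood at 6125 normalized counts in wildtype embryos, 6114 in heterozygotes and 3868 in KO embryos, and its log2 fold change of -0.66 in KO embryos (SE 0.25, adjusted p = 0.0337 from DESeq2) was the smallest in size of the 10 genes. The count of *Nefm* relative to *Nefl* was 1.15 in wildtype embryos, 1.10 in heterozygotes and 1.25 in KO embryos.

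*Nefh*, the heavy chain, appears last of the triplet during the maturation of axons and was by far the scarcest of the 10 genes (chr11:4938754-4948064, reverse strand). It had 63.7 normalized counts in wildtype embryos, 54.7 in heterozygotes and 29.5 in KO embryos. The log2 fold change in KO versus wildtype embryos was -1.11 (SE 0.36, 95% interval -1.81 to -0.41, adjusted p = 0.0143 from DESeq2). Relative to *Nefl* the count was 0.0120 in wildtype embryos, 0.00984 in heterozygotes and 0.00951 in KO embryos. Among the triplet *Nefh* thus had the lowest level and the greatest fall, but its interval covers the values of *Nefl* and *Nefm*.

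*Ina* and *Prph*, the partners of the triplet, had larger falls than any of its chains. *Ina*, which encodes alpha-internexin and is made by developing neurons before the triplet is complete, lies at chr19:47014698-47025327 on the forward strand, and the gene *Nt5c2* overlaps it on the opposite strand. Its mean normalized count was 4292 in wildtype embryos, 4910 in heterozygotes and 1586 in KO embryos, and 36.9% of the wildtype level was left in KO embryos (log2 fold change -1.44, SE 0.49, adjusted p = 0.0205 from DESeq2). *Prph* (chr15:99055174-99058978, forward strand), the filament gene of sensory, autonomic and motor neurons, had 654 normalized counts in wildtype embryos, 564 in heterozygotes and 241 in KO embryos. Its log2 fold change was also -1.44, with a smaller error (SE 0.38, adjusted p = 0.00281 from DESeq2). Relative to *Nefl*, the count of *Ina* was 0.808 in wildtype embryos, 0.884 in heterozygotes and 0.512 in KO embryos, and that of *Prph* was 0.123, 0.101 and 0.0777 in the same order. These proportions were not tested, since the errors of a ratio between genes need values per embryo.

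The promoters of *Ina* and *Prph* are shown because the genes had nearly the same fall. The RefSeq table of GRCm38.p6 holds windows of 250 bases before to 50 bases after the annotated start for 4 of the 10 genes, namely *Ina*, *Prph*, *Dcx* and *Map2*. Each is printed 5′ to 3′ on the strand of the gene in lower case, and capitals mark matches to 1 of 5 short motifs, searched on both strands. The TATA box was searched as TATAAA, the GC box was searched as GGGCGG, and the CCAAT box by the letters of its name. For the E-box, of the kind bound by proneural factors, one form was spelled CAGATG and the other form was spelled CAGCTG. No matches overlapped in the windows shown. The window of *Ina* is chr19:47014431-47014730 and that of *Prph* is chr15:99054924-99055223, both on the forward strand.
Ina: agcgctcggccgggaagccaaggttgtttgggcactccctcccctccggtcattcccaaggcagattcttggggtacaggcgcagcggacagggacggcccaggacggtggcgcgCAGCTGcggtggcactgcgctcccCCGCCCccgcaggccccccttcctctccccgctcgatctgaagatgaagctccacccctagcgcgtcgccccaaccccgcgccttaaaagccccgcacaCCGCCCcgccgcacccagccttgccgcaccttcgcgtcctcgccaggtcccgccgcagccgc
Prph: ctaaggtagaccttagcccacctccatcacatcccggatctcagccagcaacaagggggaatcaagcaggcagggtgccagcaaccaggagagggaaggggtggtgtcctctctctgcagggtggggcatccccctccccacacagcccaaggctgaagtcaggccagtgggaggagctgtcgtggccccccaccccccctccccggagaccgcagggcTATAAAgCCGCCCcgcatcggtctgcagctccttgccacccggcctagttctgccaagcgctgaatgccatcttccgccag

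The *Prph* window has a TATA box that begins at position -31 from the start, a usual distance for this motif, followed by 1 GC box. The TATA box was found in 13.6% of the 32851 windows in the table. The *Ina* window has no such match and holds 2 GC boxes, which begin at positions -111 and -12 from the start, and 1 E-box of the second form. The GC box was found in 35.7% of all windows and this E-box in 16.3%. The promoters of a pair of genes with the same fold change thus share the GC box, which is common, and differ in the TATA box and the E-box. A match is a run of letters and no measured site of binding.

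Among the microtubule-associated genes, *Dcx* had the greatest fall of all 10. *Dcx* (chrX:143855842-143933311, reverse strand) encodes doublecortin, which binds and bundles microtubules in migrating young neurons and is widely used as their marker. By normalized count it was the most abundant of the 10 in wildtype and heterozygous embryos, with 6891 in wildtype embryos, 7462 in heterozygotes and 2381 in KO embryos. Between KO and wildtype embryos the log2 fold change was -1.53 (SE 0.39, 95% interval -2.29 to -0.78, adjusted p = 0.00181 from DESeq2), and 34.6% of the wildtype level was left. Of the 17477 genes tested, 335 had a lower log2 fold change.

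*Mapt*, which encodes tau, the main microtubule-associated protein of axons, lies at chr11:104231390-104332090 on the forward strand. Its mean normalized count was 2778 in wildtype embryos, 2869 in heterozygotes and 1120 in KO embryos. Its log2 fold change of -1.31 had the smallest adjusted p of the 10 genes (SE 0.32, adjusted p = 0.00105 from DESeq2, unadjusted p = 3.13e-05). *Map2*, its relative of cell bodies and dendrites, lies at chr1:66175273-66442583 on the forward strand. It had 5970 normalized counts in wildtype embryos, 7166 in heterozygotes and 2789 in KO embryos, and its log2 fold change between KO and wildtype embryos was -1.10 (SE 0.35, adjusted p = 0.0129 from DESeq2). The dendritic and the axonal gene thus both fell, and the count of *Map2* relative to *Mapt* was 2.15 in wildtype embryos, 2.50 in heterozygotes and 2.49 in KO embryos. Annotated antisense genes overlap both, *Gm10558* at *Map2* and *Gm11659* at *Mapt*.

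*Stmn2*, which encodes a stathmin that binds tubulin dimers and promotes the disassembly of microtubules in growth cones, lies at chr3:8509360-8561606 on the forward strand. It had 5216 normalized counts in wildtype embryos, 5755 in heterozygotes and 2821 in KO embryos. In KO embryos this was a log2 fold change of -0.89 (SE 0.25, 95% interval -1.38 to -0.39, adjusted p = 0.00565 from DESeq2), the smallest in size among the 4 microtubule-associated genes. *Dcx* exceeded *Stmn2* by count in wildtype and heterozygous embryos, with ratios of 1.32 and 1.30, and was below it in KO embryos, with a ratio of 0.844. Per kb of merged exons *Dcx* was below *Stmn2* in each genotype, so the order by count depends on gene length. The values per kb were 545 against 931 in wildtype embryos, 590 against 1027 in heterozygotes and 188 against 504 in KO embryos. The change of the ratio was not tested.

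The promoters of *Dcx* and *Map2* are shown because they are the opposite ends of the 4 in base composition. The *Dcx* window is chrX:143933170-143933469 on the reverse strand, and RefSeq gives *Dcx* a further start close by. The *Map2* window is chr1:66175079-66175378 on the forward strand.
Dcx: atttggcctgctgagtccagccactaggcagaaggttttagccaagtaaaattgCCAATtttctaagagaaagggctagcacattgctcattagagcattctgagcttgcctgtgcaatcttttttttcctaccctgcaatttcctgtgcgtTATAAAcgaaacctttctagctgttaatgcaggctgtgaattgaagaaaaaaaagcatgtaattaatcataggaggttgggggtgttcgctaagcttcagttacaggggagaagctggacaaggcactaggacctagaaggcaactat
Map2: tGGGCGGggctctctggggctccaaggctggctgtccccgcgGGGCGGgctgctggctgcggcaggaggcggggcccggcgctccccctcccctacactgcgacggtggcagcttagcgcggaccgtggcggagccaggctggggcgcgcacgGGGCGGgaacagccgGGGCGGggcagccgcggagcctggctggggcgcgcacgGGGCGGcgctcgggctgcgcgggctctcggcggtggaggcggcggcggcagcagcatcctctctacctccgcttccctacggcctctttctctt

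The *Dcx* window has 43.0% G and C, below the median of 52.7% over all windows, with a TATA box match that begins at position -98 and a CCAAT match that begins at position -196. The CCAAT box was found in 37.4% of all windows. The *Map2* window has 77.7% G and C and 5 GC boxes, and neither of the other motifs of the *Dcx* window. *Ina* (71.7%) and *Prph* (64.7%) lie between them. The first E-box form, present in 17.2% of all windows, was in none of those of the 4 genes. The genes with the greatest falls, *Dcx*, *Prph* and *Ina*, therefore differed in base composition, and no motif among those searched was common to the 3.

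*Gap43*, the growth cone gene, encodes a membrane-bound protein of growing axon tips that acts on the actin cortex (chr16:42248442-42340651, reverse strand). Its mean normalized count was 3370 in wildtype embryos, 3577 in heterozygotes and 2083 in KO embryos. The log2 fold change was -0.69 (SE 0.22, 95% interval -1.13 to -0.26, adjusted p = 0.0139 from DESeq2), with 61.8% of the wildtype level left. Together with *Nefm* and *Nefl*, *Gap43* was among the genes with the smallest falls. The 95% intervals of all 10 genes nevertheless share the range from -1.13 to -0.78, and differences between genes in the size of the fall were not tested.

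**Figure D2:**
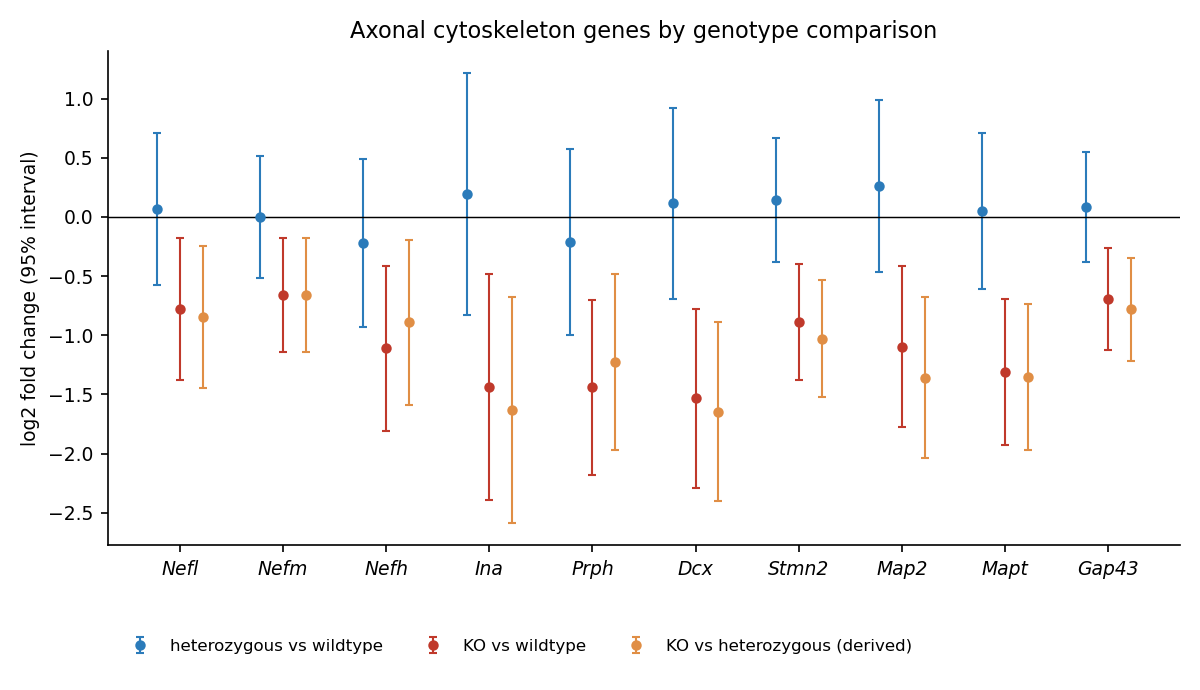
Log2 fold change of the 10 genes in KO versus wildtype, heterozygous versus wildtype and KO versus heterozygous embryos, with bars for the 95% intervals. In KO versus wildtype embryos the values run from -1.53 to -0.66 and in KO versus heterozygous embryos from -1.65 to -0.66, with intervals below 0, while each heterozygous interval crosses 0.

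In heterozygous versus wildtype embryos none of the 10 genes passed the threshold of the authors' DESeq2 test, where 0.00484% of all 20653 genes tested were lower and 0.00484% higher. None of the 10 had an unadjusted p under 0.05 either, which 75 of all 20653 genes had. That is far below the share of 0.05 that unchanged genes alone would give. The test was thus conservative in this comparison, and the lack of calls says little. The log2 fold change was positive for 7 of the 10 and negative for 3, with a median of 0.08 against -0.01 over all genes. The largest in size was that of *Map2* at 0.26 (SE 0.37, 95% interval -0.46 to 0.99), and the smallest that of *Nefm* at -0.0027 (SE 0.26, 95% interval -0.52 to 0.51). The widest interval, that of *Ina*, reached from -0.83 to 1.21. For *Gap43*, the gene with the narrowest interval, the range is -0.38 to 0.55, so a fall in heterozygous embryos as large as the -0.69 of KO embryos lies outside it.

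KO and heterozygous embryos were compared by the difference of the fold changes, with a standard error derived for each gene from both deposited errors. Lower in KO than in heterozygous embryos at an adjusted p under 0.05 were 9 of the 10 genes, and none was higher, against 8.23% lower and 13.2% higher among the 20653 genes tested. The median was -1.13 for the 10 genes and 0.08 over all genes. In 6 the difference exceeded 1 log2 unit, as in 3.12% of all genes. *Nefh* missed the threshold with a log2 fold change of -0.89 (SE 0.36, adjusted p = 0.0543). *Dcx* had the largest difference at -1.65 (SE 0.39, adjusted p = 0.000839), and *Ina* followed at -1.63 (SE 0.49, adjusted p = 0.00957). *Mapt* had -1.36 with the smallest adjusted p of 0.000737. This comparison shares its KO embryos with the one against wildtype and is no separate evidence of the fall. A standard error that ignores the shared wildtype embryos left none of the 10 past the threshold. That error is too large, since it takes in the wildtype variance, which drops out of this difference.

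The spread between embryos was large for these genes. The deposited standard errors and the derived means give for each gene a dispersion, which for high counts is close to the square of the coefficient of variation between embryos of 1 genotype, and which DESeq2 moderates across genes. Among the 12614 genes whose mean normalized count was 100 or more, the median coefficient of variation was 17.8%. The 9 genes of the 10 above that count were all above this median, and 6 were above the upper quartile of 24.9%. *Ina* at 44.1% and *Dcx* at 35.0% exceeded the value of 34.7% that 90% of genes stayed below, while *Gap43* had the least spread at 20.0%, followed by *Nefm* at 22.3% and *Stmn2* at 22.7%. The genes with the greatest falls, *Dcx*, *Prph* and *Ina*, had spreads of 35.0%, 33.9% and 44.1%. The dispersion is 1 value per gene over all genotypes, so it does not say which genotype varied.

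**Figure D3:**
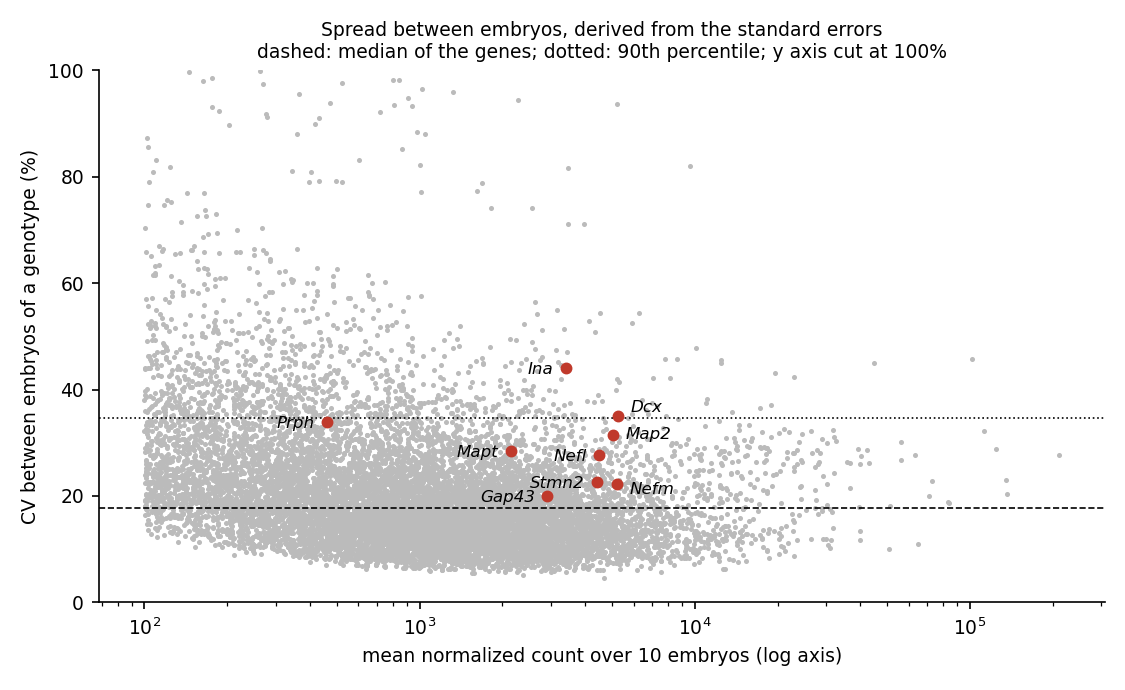
Coefficient of variation between embryos in percent against the mean normalized count (log10 axis), with genes of the 10 marked over all genes with a mean of at least 100. Ina and Dcx stand highest of the 10 at 44.1% and 35.0%, above the median of 17.8% over all genes with that mean.

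Levels can be compared between genes only per length, here as normalized counts per kb of merged exons of GENCODE M21. On that scale the order in wildtype embryos was *Gap43* (2213), *Nefl* (1572), *Ina* (1325), *Nefm* (1059), *Stmn2* (931), *Dcx* (545), *Mapt* (369), *Map2* (363), *Prph* (327) and *Nefh* (15.9). Of the 9 neighbouring pairs in this order, 5 differed by less than the larger of their coefficients of variation. These were *Nefl* above *Ina* by 18.6%, *Ina* above *Nefm* by 25.1%, *Nefm* above *Stmn2* by 13.8%, *Mapt* above *Map2* by 1.64%, and *Map2* above *Prph*. With the longest transcript in place of merged exons, 7 of the 10 genes changed rank, and *Gap43*, *Prph* and *Nefh* kept theirs. In KO embryos the level per kb was 1368 for *Gap43*, 669 for *Nefm* and 489 for *Ina*, so that *Nefm* and *Stmn2*, at 504, stood above *Ina*.

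Related genes of the neuronal cytoskeleton were taken in 7 lists, of which 57 genes were tested. In KO versus wildtype embryos 12 of them (21.1%) were lower and 5 (8.77%) higher, against 10.2% and 15.6% of all genes, and 40 did not pass the threshold. None of the 57 passed it in heterozygous embryos in the DESeq2 test, and 0 had an unadjusted p under 0.05 there. In KO versus heterozygous embryos 22 (38.6%) were lower and 5 (8.77%) higher, against 8.23% and 13.2% of all genes. When scaled by the summed counts, 39 of the 57 (68.4%) were lower and 1 (1.75%), *Des*, was higher in KO versus wildtype embryos, against 30.9% and 8.22% of all genes under the same scaling, and none of the genes called above changed direction. The 3 lists with the lowest medians were those of the collapsin response mediators, the growth cone relatives and the stathmin and doublecortin relatives.

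Of the 5 collapsin response mediator genes, which link guidance signals to the axonal cytoskeleton, 3 fell, with a median of -0.77 for the list. *Dpysl3* had a log2 fold change of -0.84 (adjusted p = 0.0042 from DESeq2), *Crmp1* of -0.77 (adjusted p = 0.0321) and *Dpysl4*, named after its value was seen, of -1.04 (adjusted p = 0.0406). Among the 7 relatives of *Stmn2* and *Dcx*, 2 fell. *Dclk1*, a doublecortin-like kinase, had -1.07 (adjusted p = 0.0014) and *Stmn3*, a neuronal stathmin, -0.88 (adjusted p = 0.0253). *Stmn1*, the stathmin of dividing cells and the most abundant of the list, had -0.43 (adjusted p = 0.155). The 7 relatives of *Gap43* included no fall past the threshold, with values of -0.56 for *Marcks* (adjusted p = 0.0602) and -0.44 for *Marcksl1* (adjusted p = 0.201), and *Fez2* rose by 0.53 (adjusted p = 0.0125).

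The other lists had medians from -0.43 to -0.17. Of 12 other microtubule-associated genes 2 fell and 1 rose. *Map1b*, made in growing axons, had a log2 fold change of -0.75 (adjusted p = 0.0163 from DESeq2), *Mapre2*, named after its value was seen, of -0.23 (adjusted p = 0.0329) and *Map7* of 0.60 (adjusted p = 0.0297). Among the ankyrins and spectrins, which form the lattice under the axonal membrane, *Ank2* (-0.66, adjusted p = 0.0151) and *Sptbn4* (-1.30, adjusted p = 0.0154) fell. *Sptbn1*, which is also made outside neurons, rose by 0.74 (adjusted p = 0.0343). Of 12 kinases that act on tau or neurofilaments, 2 fell, namely *Mapk10* (-1.13, adjusted p = 0.0086) and *Cdk5r1*, the neuronal activator of Cdk5 (-1.22, adjusted p = 0.0206), while *Gsk3b* had -0.37 (adjusted p = 0.124).

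Intermediate filament genes outside the axonal set had no call towards lower levels in the deposited test. Of 8 such genes none was lower and 2 were higher, *Vim*, the filament of mesenchyme and other immature cells, at 0.88 (adjusted p = 0.0386 from DESeq2) and *Des*, the filament of muscle, at 1.84 (adjusted p = 0.0043). Over all genes tested 10.2% were lower and 15.6% higher, and 8 genes are too few to be set apart from these shares. The other 6, named after their values were seen, were *Gfap* (-1.17), *Nes* (-0.76), *Synm* (-0.49), *Lmnb2* (-0.22), *Lmnb1* (-0.12) and *Lmna* (0.21). The 5 axonal filament genes had a median log2 fold change of -1.11 in the same comparison, against -0.17 for these 8. When scaled by the summed counts, *Lmnb2*, *Nes* and *Synm* were called lower and *Des* stayed called higher.

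**Figure D4:**
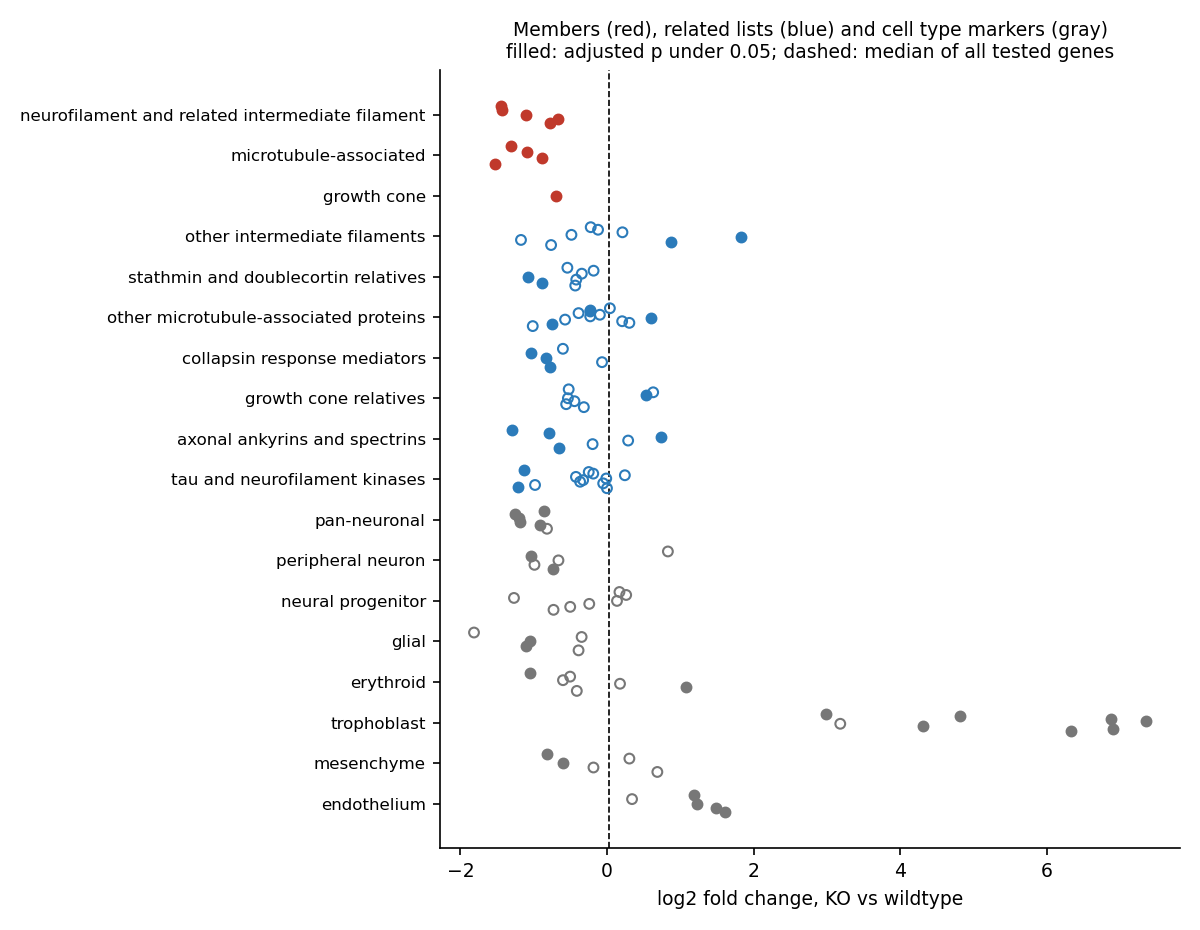
Log2 fold change in KO versus wildtype embryos (horizontal axis) for each gene of the 10 (red), the 7 related lists (blue) and the cell type markers (gray), with filled points past an adjusted p of 0.05 and a dashed line at the median of all genes tested. The 10 genes lie between -1.53 and -0.66, while the other intermediate filaments run from -1.17 to 1.84.

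Markers of other cell types moved in the same comparison, and their part in the falls was not tested. Over all genes tested 10.2% were lower and 15.6% higher. Of 6 pan-neuronal markers 5 fell, with a median of -1.05 and summed counts of 19749 in wildtype embryos, 22155 in heterozygotes and 10627 in KO embryos, and *Tubb3* had -0.82 (adjusted p = 0.0777 from DESeq2). Of 5 peripheral neuron markers 2 fell, with a median of -0.74. None of 7 neural progenitor markers was called in either direction, with a median of -0.24 and a range from -1.27 to 0.26. Their standard errors reached 0.59, so the lack of calls does not show that these markers were unchanged. In KO versus heterozygous embryos 1 of the 7 was lower. Of 8 trophoblast markers 7 rose, with summed counts of 598 in wildtype embryos, 1275 in heterozygotes and 24143 in KO embryos, which was 0.0854% of the KO total. Of 5 endothelial markers 4 rose, with sums of 7963, 8323 and 20181 in the same order. Of 5 glial markers 2 fell, with a median of -1.05, as low as the pan-neuronal one, and a range from -1.81 to -0.35. Of 5 mesenchymal markers 2 fell, with a median of -0.18, while of 6 erythroid markers 1 rose and 1 fell, with a median of -0.46. No marker of these lists had a mean normalized count under 1.

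Among genes whose mean normalized count was 100 or more, those with fold changes nearest to the median of the 10 were *2610203C20Rik*, *Snn*, *Dnajc6*, *Tbc1d9* and *Cntn1*. Nearness was the distance between the pairs of log2 fold changes in KO versus wildtype and heterozygous versus wildtype embryos, and it was 0.0059 to 0.0245 for these 5. Their log2 fold changes in KO versus wildtype embryos ran from -1.11 to -1.08, and all but *Snn* (adjusted p = 0.0584 from DESeq2) passed the threshold. *Dnajc6* encodes a neuronal auxilin of clathrin uncoating and *Cntn1* an adhesion molecule of axons. The measure rests on 3 genotype means, so many genes can lie this close.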

How the data were processed

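RNA of 10 whole embryos was sequenced by the authors from poly(A)-selected libraries. Per the labels and methods, the authors used Trimmomatic 0.33, HISAT2 (mm10), SAMtools, HTSeq and DESeq2. The paper names a directional library kit, but whether HTSeq counted with strand is not given in the sources used here. The values used here are columns of the authors' own comparisons. The deposited mean normalized count is a signal value over all 10 embryos, divided by the authors' size factors. The deposited log2 fold changes and standard errors and the deposited p-values and adjusted p-values were taken as they stand. Counts per embryo were not used here.

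The 24302 means were the same in both tables. Genotype means were solved from the overall mean and both fold changes with 3, 3 and 4 embryos. The dispersion of each gene was solved from its standard errors. The error of KO versus heterozygous embryos came from both deposited errors, less the shared wildtype variance that the dispersion gives. For 13 genes it fell back to the formula that uses the dispersion and the derived means of both genotypes. Benjamini-Hochberg adjustment was over 20653 genes. The derivation was also run on simulated data, which checks its arithmetic and not whether its formulas hold for the deposited errors. Intervals are normal 95% intervals. Exon lengths and positions are from GENCODE M21 on GRCm38, promoters from RefSeq (GRCm38.p6). Python 3.11.15, numpy 2.4.6, pandas 2.3.3, scipy 1.17.1 and matplotlib 3.10.9 were used. The alternatives were other adjustments, a minimum mean of 10, a t distribution with 7 degrees of freedom, scaling by total counts, centring on genes with a mean of at least 100, and a required change over 1 log2 unit.

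The 10 genes and all lists were chosen with earlier results of these data known. The text names all 10 genes, and of each related list the 2 with the smallest p in KO versus wildtype embryos and the 1 with the highest mean. It names of the marker lists the 1 with the highest mean where a value is given, and the 5 genes nearest to the median of the 10. A gene of the related lists is not named here.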

Additional observations from a re-analysis of the deposited data

How the results depend on the processing

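Of the 10 genes, 10 were called lower in KO versus wildtype embryos in the reported test, 9 with adjustment over every gene with a p-value, and 10 with a minimum mean of 10, scaling by total counts or centring on abundant genes. A t distribution with 7 degrees of freedom, which takes no account of the moderation across genes, left 0, with adjusted p from 0.155 to 0.187, and 0 of all genes. A required fall over 1 log2 unit left 6. In KO versus heterozygous embryos 9 were called in the reported test and 10 under a minimum mean of 10, scaling by total counts and centring, where *Nefh* passed with adjusted p of 0.0427, 0.00707 and 0.0466. The t distribution left 0. A standard error that ignores the shared wildtype embryos, and is too large because it takes in the wildtype variance, also left 0. With it 142 of all genes were still called, in place of 4427. In heterozygous embryos 0 were called under each alternative run, and *Nefm* turned from -0.0027 to 0.0067 with scaling by total counts. That scaling shifts the log2 fold changes in KO versus wildtype embryos by 0.25 and gives 5409 lower and 1437 higher genes in place of 1787 and 2721, and in KO versus heterozygous embryos 5349 and 1436 in place of 1700 and 2727. No paired analysis was possible because values per embryo were not used here, and leaving out single embryos, another count test and another low-count filter on the counts themselves were not run for the same reason.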
